A study of Mus musculus with 6 samples.

Results

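The cytosolic and mitochondrial heat shock proteins are the chaperones that bind unfolded proteins, and 10 of their genes were chosen by name: Hspa1a, Hspa1b, Hspa8, Hsph1, Dnajb1, Hsp90aa1, Hsp90ab1, Hspb1, Hspd1 and Hspe1. In the annotation table used, 22 probe sets carried the symbol of 9 of these genes, out of 18193 named genes and 45101 probe sets on the array. No probe set was named Hsp90ab1 in that table, so its level is not analysed here. A filter on low signal kept 19 of the 22 probe sets and all 9 genes. The other 3 were dim and belonged to Hsp90aa1 and Hspb1, genes with a brighter probe set.

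Neutrophils came from the peripheral blood of 3 phd3 null mice and of 3 wild-type mice on a C57 background. Each sample came from 1 mouse through negative magnetic selection, and all were held for 4 h at 3% oxygen before biotin-labelled RNA was put on Affymetrix arrays. PHD3, the product of the gene now named Egln3, is an oxygen-dependent prolyl hydroxylase. The way in which the gene was deleted, and the age and sex of the mice, are not given in the labels, and no sample at normal oxygen was analysed here.

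Heat shock proteins keep client proteins from aggregating and help them fold. In the cytosol, HSP70 proteins work in an ATP-driven cycle with J-domain partners and nucleotide exchange factors, and hand clients such as kinases and steroid receptors on to HSP90. In mitochondria, the HSP60 chamber with its HSP10 lid folds imported proteins. Many of these genes are induced by the transcription factor HSF1, which binds heat shock elements, repeats of the unit GAA in alternating orientation, when unfolded proteins accumulate.

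The promoter sequences are shown as a description of these genes, which were chosen by name. Whether HSF1 acted on them in these cells was not tested. RefSeq promoter windows on build GRCm38.p6 were given for 7 of the genes. The 250 bases before each start were searched for 2 adjoining heat shock units (GAANNTTC or TTCNNGAA, each its own reverse complement) and for 3 units (either motif extended by NN and a further unit in the alternate orientation, the 2 forms being reverse complements of each other). A match of 3 units holds overlapping matches of 2. Matches of 2 units were found for 6 of the 7 genes and of 3 units for 2, while 14.5% of 27025 genes held 2 units and 0.514% held 3 in any window (12.8% and 0.466% of 32851 windows). The counts are not of separate sites, since Hspa1a and Hspa1b have near-identical windows and Hspd1 and Hspe1 share the same bases. The capitals mark the matches and the flanking bases are in lower case.
Hspa1a (chr17:34972157-34972406, minus strand, the 250 bases before the start): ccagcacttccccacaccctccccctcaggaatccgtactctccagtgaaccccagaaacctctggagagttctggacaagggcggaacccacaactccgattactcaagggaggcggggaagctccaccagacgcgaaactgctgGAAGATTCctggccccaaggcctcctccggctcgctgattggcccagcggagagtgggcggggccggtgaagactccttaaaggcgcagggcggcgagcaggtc
Hsph1 (chr5:149636342-149636389, minus strand): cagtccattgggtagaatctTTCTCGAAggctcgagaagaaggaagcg
Hspb1 (chr5:135887782-135887849, plus strand): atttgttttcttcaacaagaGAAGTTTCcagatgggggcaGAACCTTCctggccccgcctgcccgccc
Hspe1 (chr1:55088053-55088082, plus strand): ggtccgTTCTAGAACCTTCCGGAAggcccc
The Hspa1b window (chr17:34959239-34959488, minus strand) was identical to that of Hspa1a at 247 of 250 bases and held the same match, 104 bases before the start in both genes. The bases shown for Hspe1 lie also before a start of Hspd1, which is read from the opposite strand, and hold 2 overlapping matches of 3 units. Neither Dnajb1 window held these letters. A match describes the sequence only and says nothing of binding in these cells.

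Signals are MAS5 intensities on a linear scale, tested as log2(signal + 16). Every array had nearly the same trimmed mean (99.47 to 99.57). Median signals were 64.2 and 60.3 in phd3 null and wild-type sample 3 and 49.4 to 52.1 in the other 4 arrays. The 2 sample 3 arrays stood apart, as their median correlation with each other array was 0.739 and 0.788, against 0.838 to 0.866. The targeted gene, Egln3, was at 87.2, 29.6 and 73.5 in the phd3 null samples, numbered 1 to 3, and at 2088, 1733.9 and 327 in the wild-type samples. The brightest of 10 neutrophil markers, S100a9, a subunit of calprotectin, was at 11843.6 to 24367.2, and the lowest signal among the 10 was 25.6, for Cxcr2 in phd3 null sample 3. The number of arrays, 3 for each genotype, limits the precision.

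The genotypes were compared first, which asks whether loss of PHD3 altered chaperone transcripts in hypoxic neutrophils. None of the 9 heat shock genes passed the test of phd3 null against wild-type neutrophils. In limma over 10960 genes, 0 of 9 had an adjusted p under 0.05, where 0% of all genes did, and 0 of 9 had an unadjusted p under 0.05, where 1.74% of all genes did. The targeted gene, Egln3, at a log2 difference of -3.85, did not pass in this fit either (limma adjusted p = 0.9996). With the sample number as a block Egln3 passed (limma adjusted p = 0.0014). A gene that did not pass in this fit is therefore not shown to be unchanged. The median difference (phd3 null minus wild type) was -0.20 on the log2 scale over the 9 genes and -0.01 over all genes. Means were lower in phd3 null for 8 of the 9 genes, against 50.6% of all genes. Most of these differences were, however, smaller than their standard errors, which in this fit hold the spread between sample numbers too. Probe set by probe set the result was the same, with 0 of 19 past an adjusted p of 0.05 (0% of 22519 probe sets) and 0 of 19 at an unadjusted p under 0.05 (1.99%).

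Hspa1a and Hspa1b encode the stress-inducible HSP70 and are near-identical neighbours, so the arrays may not tell their transcripts apart. Hspa1a (probe set 1452388_at) had signals of 163.8, 67.2 and 1157.9 in the phd3 null samples, numbered 1 to 3, and of 116, 171.3 and 1175.1 in the wild-type samples. The genotypes overlapped throughout, and the arrays numbered 3 were high in both. The log2 difference was -0.25 (SE 1.01, limma adjusted p = 0.9996). By pair of same-numbered samples it was 0.45, -1.17 and -0.02, so phd3 null was higher in the first pair, lower in the second and nearly equal in the third.

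Hspa1b was read by 3 probe sets, and the brightest, 1452318_a_at, had signals of 468.5, 262.3 and 3338.4 in phd3 null samples and of 364.5, 522.6 and 3249 in wild-type samples. Its log2 difference was -0.19 (SE 0.98, limma adjusted p = 0.9996), with pair differences of 0.35, -0.95 and 0.04. This is the order of pairs seen for Hspa1a. The other probe sets of Hspa1b, 1427126_at and 1427127_x_at, differed by -0.05 (SE 0.91) and -0.28 (SE 1.00).

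**Figure D1:**
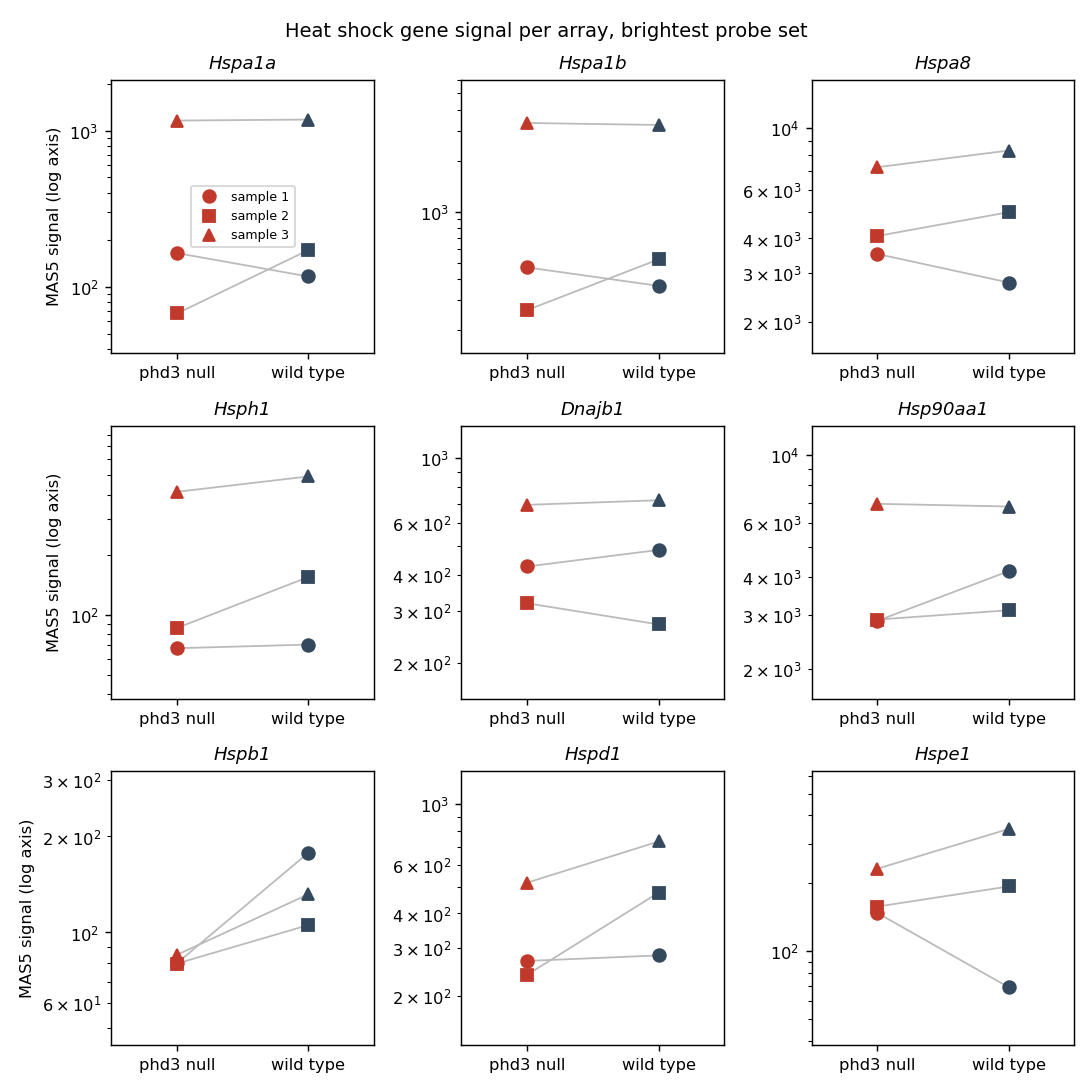
MAS5 signal (log axis) of the 9 measured heat shock genes on each array, phd3 null on the left and wild type on the right of each panel, with lines joining same-numbered samples; each point is 1 mouse. Sample 3 (triangles) is the highest in both genotypes for 8 genes, and for Hspb1 all phd3 null samples (79.9 to 85.1) lie below all wild-type samples (105.5 to 177.9).

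Hspa8 encodes the constitutive HSC70, which carries out the housekeeping work of the family. Its brightest probe set, 1455789_x_at, had signals of 3517.7, 4084.1 and 7231.1 in phd3 null samples and of 2775.4, 4976.6 and 8303.3 in wild-type samples, with a log2 difference of -0.05 (SE 0.48). The groups overlapped, and the 4 Hspa8 probe sets gave differences from -0.35 to -0.01.

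Hsph1 encodes HSP110, a nucleotide exchange factor for HSP70. Its signals (1425993_a_at) were 67.8, 85.7 and 412.9 in phd3 null samples and 70.7, 154.3 and 493.1 in wild-type samples. The difference of -0.35 (SE 0.74) was lower in phd3 null in all 3 pairs (-0.05, -0.74 and -0.25), as for 3 of the 9 genes and 13% of all genes. The second probe set, 1423566_a_at, was lower in phd3 null in the first 2 pairs and higher in the third (0.28).

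Dnajb1 encodes the J-domain protein that stimulates the ATPase of HSP70. Its signals (1416756_at) were 426.9, 319.6 and 693.4 in phd3 null samples and 486.2, 270.6 and 719 in wild-type samples, a log2 difference of 0.00 (SE 0.43). The groups were interleaved.

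Hsp90aa1 encodes the stress-inducible cytosolic HSP90. Its brightest probe set, 1438902_a_at, had signals of 2879, 2906.7 and 6932.2 in phd3 null samples and of 4180.8, 3117.2 and 6793.1 in wild-type samples, with a log2 difference of -0.20 (SE 0.47). The groups overlapped because sample 3 was high in both. Another tested probe set, 1426645_at, was lower in phd3 null in all 3 pairs (-0.44, -0.57 and -0.05). The remaining tested one, 1437497_a_at, was also lower in all 3 pairs (-0.52, -0.78 and -0.35). Its signals were 731.3, 785.4 and 2275.2 in phd3 null samples and 1053.3, 1357.7 and 2910.7 in wild-type samples. With the sample number as a block its unadjusted p was 0.0156, the 1 of 19 probe sets under 0.05 in that fit, where 5.4% of all probe sets were, and it did not pass in limma over all probe sets (adjusted p = 0.88), nor did any of the 19 (0.0133% of all probe sets did).

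Hspb1 encodes a small heat shock protein that holds unfolded clients without using ATP and also binds actin. It was the 1 gene of the 9 whose genotypes did not overlap, which was so for 6.92% of all genes. Its signals (1422943_a_at) were 80.1, 79.9 and 85.1 in phd3 null samples and 177.9, 105.5 and 131.8 in wild-type samples, means of 81.7 ± 2.95 and 138.4 ± 36.6 (SD, n = 3). Every phd3 null sample was lower than every wild-type sample, and the pair differences were -1.01, -0.34 and -0.55. The log2 difference of -0.63 (SE 0.33) did not pass the test (limma unadjusted p = 0.0863, adjusted p = 0.9996). The other Hspb1 probe set, 1425964_x_at, was below the level filter and not tested, with signals of 7.8, 3.7 and 4.2 in phd3 null samples and of 9.6, 23.1 and 81.6 in wild-type samples.

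Hspd1 and Hspe1 encode the mitochondrial chaperonin HSP60 and its co-chaperonin HSP10. Hspd1 (1426351_at) had signals of 268.8, 239.4 and 517.9 in phd3 null samples and of 281.5, 476.3 and 731.2 in wild-type samples. It was lower in phd3 null in all 3 pairs (-0.06, -0.95 and -0.48), with overlapping groups and a log2 difference of -0.50 (SE 0.43, limma adjusted p = 0.9996). Hspe1 did not follow it, with signals (1450668_s_at) of 147.8, 157.7 and 232 in phd3 null samples and of 69.2, 193.7 and 348.3 in wild-type samples. Its pair differences were 0.94, -0.27 and -0.55 and its overall difference 0.04 (SE 0.50). The other Hspe1 probe set, 1422579_at, gave -0.12 (SE 0.43).

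**Figure D2:**
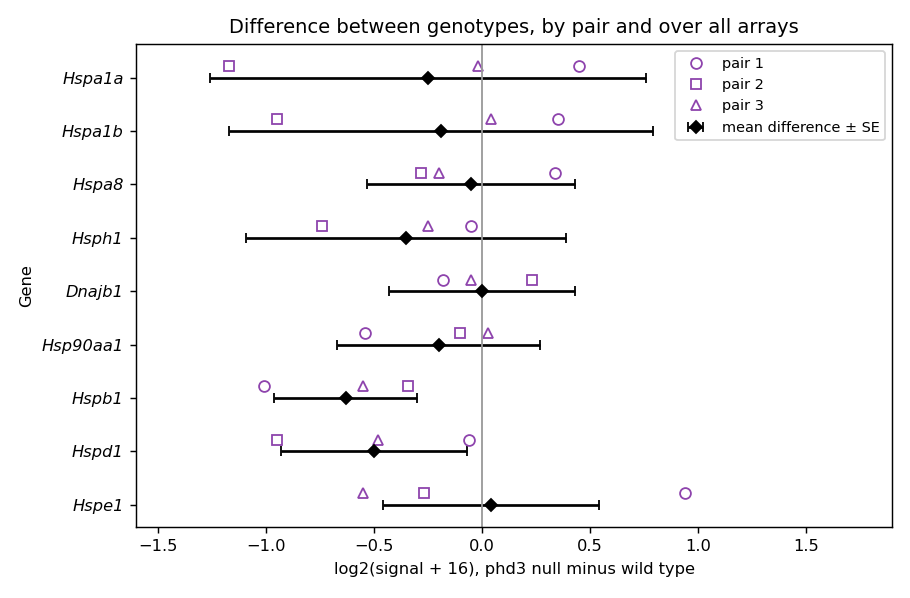
Log2 difference between phd3 null and wild type for the 9 genes, with open symbols for the pairs of same-numbered samples and black diamonds for the difference over all arrays with its standard error (n = 3 for each genotype). Hspb1, Hspd1 and Hsph1 lie below 0 in all 3 pairs, and the pairs of Hspa1a spread from -1.17 to 0.45.

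The pairs differed in how the members lay. In pair 1, 5 of 9 genes were lower in phd3 null (50.1% of all genes were), with a median of -0.05. In pair 2, 8 of 9 were lower (50.4% of all genes), with a median of -0.34 and Dnajb1 as the exception at 0.23. In pair 3, 7 of 9 were lower (50.3% of all genes), with a median of -0.20. With the sample number as a block the standard errors of Hspa1a and Hspa1b fell to 0.30 and 0.25, and still 0 of 9 genes passed in limma (smallest adjusted p = 0.883, for Hspd1, where 0.0182% of all genes passed). At an unadjusted p under 0.05 the count with the block was 0 of 9, against 5.62% of all genes. Without both sample 3 arrays the median was -0.32 and 0 of 9 genes passed, where 0.00912% of all genes did.

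The second comparison was between sample numbers, which same-numbered samples of the 2 genotypes share through a code in their source labels. What the code marks is not stated. Both sample 3 arrays lay above all 4 others for 8 of the 9 genes, Hspa1a and Hspa1b included. Of the 7 genes other than Hspa1a and Hspa1b that was so for 6, against 18.5% of all genes. A moderated F test in limma, with genotype in the model, asked whether a gene differed by sample number, and 5 of the 7 genes other than Hspa1a and Hspa1b had an adjusted p under 0.05, against 11.1% of all genes. All 5 were also higher in both sample 3 arrays than in every other array, and 3.22% of all genes both passed and were higher in this way.

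That Hspa1a differed between sample numbers was known when the genes were chosen, and Hspa1b shares its sequence, so their values are a description, and their adjusted p under 0.05, which brings the count to 7 of 9, is not set against that share. Hspa1a was at 1157.9 and 1175.1 in phd3 null and wild-type sample 3, against 67.2 to 171.3 in samples 1 and 2. The log2 difference between sample 3 and the mean of samples 1 and 2 was 3.26 within phd3 null and 2.92 within wild type. For Hspa1b it was 3.19 and 2.85, with sample 3 above the rest on all of its probe sets. Over both genotypes together the difference was 3.09 for Hspa1a and 3.02 for Hspa1b. These values over both genotypes were the 8th and 11th largest among 10960 genes, whose 5th and 95th percentiles were -1.40 and 1.19.

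The 5 genes that passed among the other 7 span the HSP70 system, HSP90 and the chaperonin. Hsph1 was at 412.9 and 493.1 in phd3 null and wild-type sample 3, against 67.8 to 154.3 in samples 1 and 2, a log2 difference of 2.14 (limma adjusted p = 0.000786). Hsp90aa1 was at 6932.2 and 6793.1 in sample 3, against 2879 to 4180.8 (1.08, limma adjusted p = 0.0156). Hspa8 was at 7231.1 and 8303.3, against 2775.4 to 4976.6 (1.04, limma adjusted p = 0.0144). For each of these genes both sample 3 arrays lay above the 4 others.

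Dnajb1 was at 693.4 and 719 in sample 3, against 270.6 to 486.2 (0.92, limma adjusted p = 0.0232). Its other probe set, 1416755_at, disagreed, with 389.2 and 453 in sample 3 against 305.3 to 415, overlapping ranges and a difference of 0.20 (limma adjusted p = 0.681). Hspd1 was at 517.9 and 731.2 in sample 3, against 239.4 to 476.3 (0.98), and passed narrowly in the gene table (limma adjusted p = 0.0497) and not in the table of probe sets (adjusted p = 0.0695).

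Hspe1 and Hspb1 did not pass. Hspe1 was at 232 and 348.3 in sample 3, against 69.2 to 193.7, a difference of 1.00 (limma adjusted p = 0.098). Within phd3 null the difference was 0.56, and within wild type it was 1.45. Hspb1 was at 85.1 and 131.8 in sample 3, inside the range of 79.9 to 177.9 of the other arrays, with a difference of 0.01 (limma adjusted p = 0.873). The Hspb1 window holds 2 of the matches shown above, and whether matches bear on these values was not tested.

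In the table of probe sets, 13 of 19 passed by sample number. Among them were the 4 probe sets of Hspa1a and Hspa1b, which are a description only. Leaving out these 4, 9 of 15 passed, against 8.26% of all probe sets. Of those 15, 13 had both sample 3 arrays above all others, against 18.9% of all probe sets. All 3 tested Hsp90aa1 probe sets passed, with differences from 1.08 to 1.45, and so did 3 of the 4 Hspa8 probe sets. The fourth, 1431182_at, had a difference of 1.05 at lower signals and did not pass (adjusted p = 0.202).

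**Figure D3:**
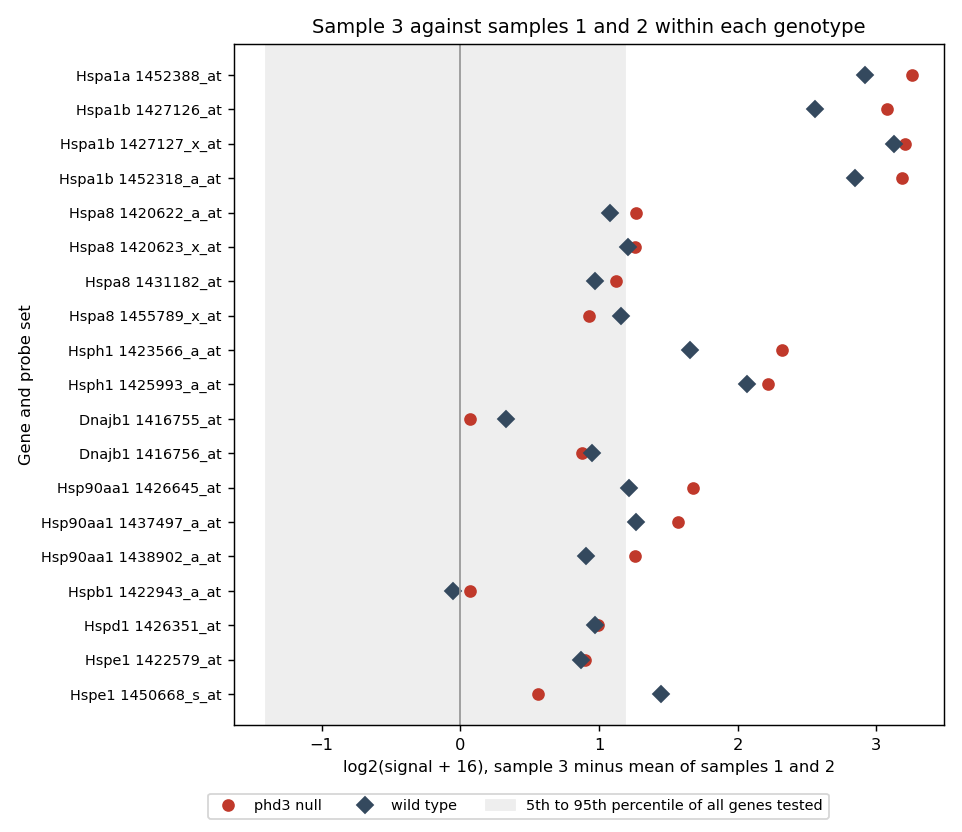
Log2 difference between sample 3 and the mean of samples 1 and 2 for the 19 tested probe sets. Circles are differences within phd3 null and diamonds are differences within wild type. The grey band spans the 5th to 95th percentile of all genes tested (-1.40 to 1.19). It was taken over both genotypes together and not within each genotype, as the points were. The genotypes lie close together for most probe sets, at 2.56 to 3.26 for Hspa1a and Hspa1b, and at 0.33 or below for Hspb1 and 1 of the 2 Dnajb1 probe sets.

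These calls rest on few arrays and on the settings. Without a trend of the prior variance with signal, limma passed 0 of 9 (0% of all genes). Scaling the arrays to one median put the difference of all genes at -0.16 in place of 0.10. Then 3 of 9 passed, namely Hspa1a, Hspa1b and Hsph1. Hsph1 was thus the only gene to pass among the 7 other than Hspa1a and Hspa1b (12.6% of all genes passed). Leaving out phd3 null sample 3 or wild-type sample 3 leaves a single array of that number, so only the median is given. The median difference over the 9 genes was then 1.16 and 0.99.

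Other transcripts moved with the sample number, and their part in the heat shock values was not tested. Of 10 B cell markers with a probe set, 9 had both sample 3 arrays above all others (18.5% of all genes did), and their summed signal was 10257.4 to 16570.4 in sample 3, against 1627.5 to 4223.1 in the other arrays. Cd79b, part of the B cell receptor, was at 1316.1 and 840.8 in phd3 null and wild-type sample 3, against 24.1 to 123.7. Of 7 monocyte and macrophage markers, 5 were below all other arrays in sample 3 (16.9% of all genes were), with a summed signal of 5410.4 to 6504.4, against 18699.5 to 20149. F13a1, the coagulation factor made by monocytes, was at 455.1 and 474.9, against 4135 to 6879.1. In bulk samples, fewer cells of a type and less RNA per cell cannot be told apart.

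Of 10 neutrophil markers, 5 were lower in sample 3 than in all other arrays (16.9% of all genes were), with a summed signal of 26046.4 to 44257.1, against 43224.9 to 59390.8. The chemokine receptor Cxcr2 was at 25.6 and 227 in phd3 null and wild-type sample 3, against 558.9 to 978.9. Of 12 oxygen-sensing and hypoxia-induced genes, 8 were lower in sample 3 than in all other arrays (the same 16.9%), with a summed signal of 7350.5 to 7359.5, against 26980.6 to 36137. T cell markers summed to 503.6 to 850.6 in sample 3, against 273.4 to 553.8, and NK cell markers to 2445.6 to 3679.6, against 501.7 to 6223.5. Erythroid markers summed to 4777.7 to 6831, against 750.1 to 5977.5, and platelet markers to 298.8 to 475.6, against 230.4 to 430. No marker was listed at 0. As a sign of RNA quality, the ratio of 3' to 5' Gapdh signal was 0.773 and 0.659 in phd3 null and wild-type sample 3, inside or below the range of 0.726 to 0.805 in the other arrays.

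Across the genotypes, the same lists overlapped in part. B cell markers summed to 1627.5 to 16570.4 in phd3 null and to 2065.6 to 10257.4 in wild type, and monocyte markers to 5410.4 to 20149 in phd3 null and to 6504.4 to 19288.1 in wild type. NK cell markers, 8 of 8 lower by mean in phd3 null, summed to 501.7 to 3007.2 in phd3 null and to 1431.9 to 6223.5 in wild type.

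The partners of these chaperones were read from lists of 80 other genes, of which 66 were tested. By genotype 0 of 66 passed, 1 had an unadjusted p under 0.05 (1.74% of all genes did), and 26 were higher and 40 lower in phd3 null, with a median of -0.08 (all genes -0.01). By sample number 6 of 66 passed, or 9.09%, against 11.1% of all genes, and the median difference of sample 3 was 0.22 (all genes 0.10).

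Among the HSP70 relatives and exchange factors, 2 of 14 passed by sample number, near the 11.1% of all genes. Hspa4, an HSP110 relative of Hsph1, was higher in sample 3, at 819.1 and 687.9 in phd3 null and wild type against 269.6 to 375.4 (1.14, limma adjusted p = 0.0156). Hspa13, a microsomal relative, was lower, at 191.8 and 211.3 against 361.1 to 577.3 (-1.05, limma adjusted p = 0.0211). By genotype 4 were higher and 10 lower, and the smallest p was that of the exchange factor Bag1 (-0.51, SE 0.34).

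Among the J-domain proteins, 2 of 17 passed by sample number, near the 11.1% of all genes. Dnaja1, a cytosolic HSP70 partner, was at 4665.1 and 5077.7 in phd3 null and wild-type sample 3, against 1108.8 to 1555.2, a difference of 1.87 (limma adjusted p = 0.000116). Dnajb9, a partner of BiP in the endoplasmic reticulum, was at 1092.9 and 1129.9, against 456.3 to 909 (0.92, limma adjusted p = 0.0177). Dnajb11, also of the endoplasmic reticulum, lay the other way, at 48.7 and 18.7 against 100.7 to 163.5 (-1.55, limma adjusted p = 0.0797).

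The 1 gene of the 66 with an unadjusted p under 0.05 by genotype, a share below that of all genes, was Dnajb4, of the J-domain list. It had signals of 154.7, 87 and 180.2 in phd3 null samples and of 329.1, 358.9 and 233.1 in wild-type samples, without overlap (as for 6.92% of all genes), a difference of -1.07 (SE 0.36, limma adjusted p = 0.9996). Of 17 J-domain genes, 11 were lower in phd3 null, with a median of -0.22.

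In the HSP90 co-chaperone list, which also holds the HSP90 relative Trap1, 0 of 11 genes passed in either test. Of all genes, 0% passed by genotype and 11.1% by sample number. By genotype 7 of 11 were lower in phd3 null, with a median of -0.19, and the smallest p was that of Ahsa2, a relative of the activator of the HSP90 ATPase. It had signals of 125.6, 169 and 9.7 in phd3 null samples and of 179, 115.8 and 193.5 in wild-type samples, so the groups overlapped (limma unadjusted p = 0.166). By sample number the smallest p was that of Cdc37, which brings kinases to HSP90, at 298.8 and 275.7 in phd3 null and wild-type sample 3 against 314.2 to 498.2 (-0.52, limma adjusted p = 0.272).

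Of 5 small heat shock proteins tested other than Hspb1, 0 passed in either test. Of all genes, 0% passed by genotype and 11.1% by sample number. By genotype 4 of the 5 were lower in phd3 null, with a median of -1.03. Hspb3, which had the smallest p, had signals of 17.7, 45.8 and 8.9 in phd3 null samples and of 37.7, 110 and 115.9 in wild-type samples (-1.37, SE 0.63), and Hspb7 differed the other way by 0.81 (SE 0.39). At signals as low as those of Hspb3 the pseudocount weighs on the size of a difference.

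Of 8 subunits of TRiC, the cytosolic chaperonin, only Cct3 passed by sample number, near the 11.1% of all genes. Cct3 was at 1031.7 and 1145.9 in phd3 null and wild-type sample 3 against 388.3 to 839.8 (0.87, limma adjusted p = 0.0203). The median over the 8 was 0.32. Of 8 genes of mitochondrial import and proteolysis 0 passed by sample number, against 11.1% of all genes, with a median of 0.09. By genotype 6 were higher in phd3 null, among them the protease gene Lonp1 (0.64, SE 0.35). No probe set was named Hsf1 in the annotation used, so its level is not analysed here, and Hsf4 was below the level filter. The 3 tested genes of heat shock factors and their regulators were Hsf2, Hsf2bp and Hsbp1, whose product binds HSF1 and restrains it. Hsbp1 alone passed by sample number (11.1% of all genes did). It was lower in sample 3, at 114.8 and 131.8 against 249.2 to 425.1 (-1.15, limma adjusted p = 0.0449). Hsf2 differed by 0.55 (limma adjusted p = 0.661).

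**Figure D4:**
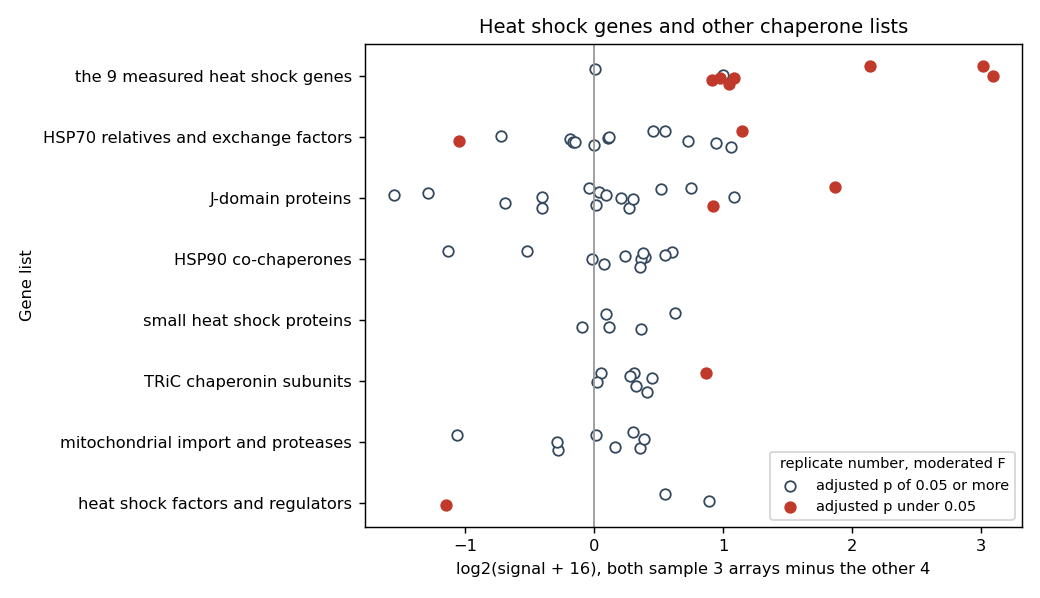
Log2 difference between both sample 3 arrays and the other 4 arrays for the 9 measured heat shock genes and the tested genes of 7 lists; each point is 1 gene, filled where the F test over sample numbers gave an adjusted p under 0.05. In the top row 8 of 9 genes lie at 0.92 or above and 7 are filled, Hspa1a and Hspa1b among them. In the lists 6 of 66 are filled, 2 of them below 0.

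As a description of likeness over the 6 arrays, the genes whose log2 signal followed Hspa1a most closely by Pearson's r were Hspa1b (0.9983), Sumo3 (0.9959), Snord104 (0.9935), Atp1b1 (0.9923) and Klhdc3 (0.9909). Since both sample 3 arrays stand apart, these values mostly rest on 2 arrays of 6. Sumo3, which encodes a ubiquitin-like modifier, was at 840 and 834.9 in phd3 null and wild-type sample 3, against 198.9 to 346.2. Among the heat shock genes other than Hspa1b, Hsph1 had the highest value (0.9408, rank 126 of 10960 genes) and Hspb1 the lowest (0.0368).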

How the data were processed

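Per the labels, blood neutrophils of 6 mice were profiled on 6 Affymetrix arrays. The deposited table holds linear signal intensities made with MAS5, a tool named in the submitters' processing notes without a version. No detection calls were used. The arrays share 1 trimmed mean, so a change common to most genes could not be seen.

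Of 45101 probe sets 64 were controls. For each gene the brightest probe set was taken, by its average log2(signal + 16), and genes below the median of all probe sets (5.90) were not tested, which left 10960 genes. All 9 genes and all 19 tested probe sets also passed this level over samples 1 and 2 alone. Genotypes, and sample numbers by an F test with genotype in the model, were compared with limma 3.58.1 in R 4.3.3 (lmFit, eBayes with trend, two-sided, Benjamini-Hochberg over all features tested). The code was tested on simulated data. Fold changes on this scale understate changes of dim genes. The pseudocount, level filter, normalization, prior variance, probe set rule, replicate block and samples were varied.

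The members and lists were chosen with earlier results of these data known. Named genes were the members, Egln3, up to 3 genes of smallest p in each chaperone list and test, the brightest gene and the gene of smallest p by sample number in each marker list, and the 5 genes most like Hspa1a. Same-numbered arrays carry a common code in their source labels. They deviated together from the means of their genotypes, with correlations of 0.292, 0.151 and 0.474 for numbers 1 to 3. Differently numbered arrays gave -0.363 to 0.177, the highest for phd3 null 2 with wild type 1, above that of number 2. Same-numbered arrays were treated as pairs in the pair differences and in the fit with a block. The main genotype fit, with its standard errors and p-values, took no account of the pairs. Promoter sequences are from RefSeq, build GRCm38.p6. The arrays' files name no build.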

Additional observations from a re-analysis of the deposited data

How the results depend on the processing

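No heat shock gene or probe set passed by genotype in any alternative (0 of 9 genes and 0 of 19 probe sets, replicate block included, with which the median stayed at -0.20 for genes and -0.19 for probe sets). In these unpaired fits the medians were not stable to leaving out 1 array. They moved between -0.66 and 0.34 for genes and between -0.72 and 0.32 for probe sets. They were lowest without phd3 null sample 3 and highest without wild-type sample 3. Leaving out 1 sample 3 array keeps the other in 1 genotype only, which mixes the sample number with the genotype. Without both sample 3 arrays the medians were -0.32 for genes and -0.31 for probe sets. Single genes turned sign around 0: Hspe1 to -0.01 with a pseudocount of 64 and with one median, and to -0.04 with averaged probe sets; Hspa8 to 0.02 and Dnajb1 to 0.06 with quantile normalization, and to 0.03 and 0.02 without both sample 3 arrays. Leaving out 1 array, the genotype difference ran from -1.34 to 0.73 for Hspa1a, -1.25 to 0.76 for Hspa1b, -0.45 to 0.34 for Hspa8, -1.09 to 0.34 for Hsph1, -0.36 to 0.32 for Dnajb1, -0.62 to 0.10 for Hsp90aa1 and -0.53 to 0.52 for Hspe1. Hspb1 (-0.79 to -0.46) and Hspd1 (-0.84 to -0.18) kept their sign. By sample number, the count of 7, Hspa1a and Hspa1b included, became 3 with one median (median 0.76 against 1.04) and 0 without the trend, the cause of which was not tested, and ran from 4 to 8 when 1 array was left out (median 0.98 to 1.19). It was 5 to 7 in the other alternatives, and 13 of 19 by probe set, an alternative chosen after seeing the data. The share of all genes that passed moved too, from 11.1% to 12.6% with one median and 0% without the trend. It was 6.67% to 12.2% in the other alternatives on all 6 arrays, and 8.26% of all probe sets passed. The counts hold Hspa1a and Hspa1b, known to differ when chosen, and so are not set against these shares. Leaving out 1 array leaves a single array of its number, so no share is given there. Hspb1 turned to -0.12 with quantile normalization and -0.24 with one median, and ran from -0.13 to 0.15 when 1 array was left out. The other 8 genes stayed above 0 in every alternative. Low signals limit genes such as Hspb3.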
